A study of Arabidopsis thaliana with 2 samples.

Results

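EXPA4, EXPA8, XTH32 and EXO are 4 Arabidopsis thaliana genes whose proteins loosen the cell wall or promote leaf growth. They were taken by gene name from the array's annotation, which gives each of them 1 probe set, and they are 4 of 3602 genes named there. They were selected on their log2 ratios of NOT over WDC, known from an earlier look at these arrays to be low, so those ratios are given below as a description without a test. Leaf RNA was measured on 2 one-colour oligonucleotide arrays, 1 for the pooled sample coded NOT and 1 for the pooled sample coded WDC, in a series about nitric oxide in plants. Both samples are rosette leaves of accession Col-0 at growth stage 3.5, grown on compost at 22 °C under continuous light after cold stratification. A label on the NOT sample describes each sample as a pool of 4 experiments of about 8 leaves, and no allele or treatment agent is named for either sample. The labels mention a control without saying which code it is, so every ratio is NOT over WDC and no treated array is named. Since each group has a single array, no spread between samples can be had, and precision is limited by this number.

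A growing plant cell enlarges when its turgor pressure stretches a wall that has been loosened. Expansins loosen the contacts between cellulose and xyloglucan without cutting either polymer, and act best in an acid wall. Xyloglucan endotransglucosylase/hydrolases, the XTH enzymes, cut xyloglucan chains and rejoin or hydrolyse them. EXO (EXORDIUM) is an extracellular protein that is induced by brassinosteroid hormones and is needed for normal leaf cell expansion. In rosette leaves genes of these kinds are typically most active while the blade is still enlarging.

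All 4 genes had a lower signal in NOT than in WDC, by 1.61-fold to 2.21-fold. EXO and EXPA8 were more than 2-fold lower, and EXPA4 and XTH32 lay between 1.5-fold and 2-fold. All 4 probe sets were above the signal floor of 12.5 on both arrays, which is the 40th percentile of all signals that are not controls. None of the 4 carries a suffix that marks sequence shared with other transcripts. The rule that grouped them used this same contrast, so nothing is read from the count of 4 of 4 at least 1.5-fold lower beside the 8.73% of 4753 probe sets that were. As the RNA came from whole leaves, less RNA per cell and fewer cells of a type cannot be told apart.

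EXPA8 (AT2G40610), an alpha-expansin, gave 36.2 units in NOT against 72.6 in WDC. The NOT signal was 2.01-fold lower, a log2 ratio of -1.00. Its probe set stood above 58.6% of the other probe sets on the NOT array and above 70.2% on the WDC array, positions that a constant scaling of an array does not change. EXPA8 thus sat just past 2-fold, beside 3.32% of probe sets that were at least 2-fold lower in NOT.

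EXPA4 (AT2G39700), the other alpha-expansin of the group, gave 58.3 units in NOT against 96.0 in WDC. The NOT signal was 1.65-fold lower, a log2 ratio of -0.72. Its position was above 67.0% of probe sets on the NOT array and above 74.8% on the WDC array. These positions come from the same signals as the ratios and add no separate evidence.

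XTH32 (AT2G36870), an XTH enzyme that remodels xyloglucan, gave 55.3 units in NOT against 89.3 in WDC. The NOT signal was 1.61-fold lower, a log2 ratio of -0.69, the value closest to the 1.5-fold limit among the 4 genes. It stood above 66.2% of probe sets in NOT and above 73.8% in WDC. The nearest expansin or XTH gene outside the limit was the beta-expansin EXPB1, 1.21-fold lower in NOT.

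EXO (AT4G08950), the growth-promoting wall protein, gave 23.4 units in NOT against 51.8 in WDC. The NOT signal was 2.21-fold lower, a log2 ratio of -1.15. It stood above 50.9% of probe sets in NOT and above 64.1% in WDC. Its NOT signal was 1.87 times the floor, the smallest margin of the 4. For EXPA8, XTH32 and EXPA4 the NOT signal was 2.90, 4.42 and 4.66 times the floor.

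**Figure D1:**
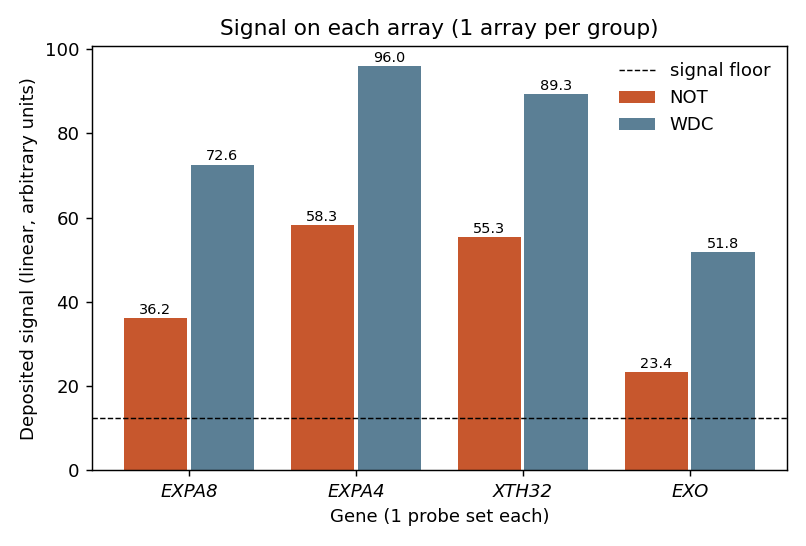
Bars give the deposited linear signal (arbitrary units) of the single probe set of each gene, NOT left and WDC right, with 1 array per group and so no error bars. The dashed line is the signal floor of 12.5. Each gene has a shorter bar in NOT, from 23.4 against 51.8 in EXO to 58.3 against 96.0 in EXPA4. Heights of different genes are not comparable, since each probe set binds with its own strength.

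In absolute terms the WDC signal exceeded the NOT signal by 36.4 units for EXPA8, 37.7 for EXPA4, 34.0 for XTH32 and 28.4 for EXO. The log2 ratios of the 4 genes had a median of -0.86 and spanned 0.46. The widest gap was between EXO and XTH32, and the narrowest, of 0.03, between EXPA4 and XTH32. EXPA8 lay 0.28 below EXPA4 on the log2 ratio.

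How far 1 probe set can be relied on was described from other genes that have several. Across 93 genes with more than 1 probe set above the floor, the log2 ratios within a gene scattered with an SD of 0.20, and the median gap between the highest and the lowest was 0.20. This spread covers probe noise and not differences between plants or pools. It pools genes of any brightness and includes probe sets marked for shared sequence, which may not be independent readings. It can therefore understate the noise of a dim gene with 1 probe set, which was not tested. Gaps at least as wide as that between EXPA8 and EXPA4 were found within 25 of the 93 genes, and gaps at least as wide as that between EXO and XTH32 within 10. The gap between the 2 expansins is thus of a size that probe sets of 1 gene also show. Of the 93 genes, 9 had a probe set at least 1.5-fold lower in NOT, beside 9.09% of named genes by their brightest probe set. All probe sets of these 9 were lower in NOT, while in 3 of the 9 genes all of them passed 1.5-fold. As the 9 were picked for a low probe set, their shared direction is only a description.

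Placed among all 4753 probe sets above the floor on both arrays, EXO ranked 118 from the lowest ratio, EXPA8 157, EXPA4 289 and XTH32 319. This put EXO in the lowest 2.48%, EXPA8 in the lowest 3.30%, EXPA4 in the lowest 6.08% and XTH32 in the lowest 6.71%. Among 1937 named genes they ranked 45, 57, 116 and 130 from the lowest. The 4 genes were picked for low ratios, so their place in the lower tail was set in advance. Within that tail they lay far from its end. For all these probe sets the median log2 ratio was 0.00 and the quartiles -0.24 and 0.22.

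As scatter can depend on signal, each gene was also set beside the 400 probe sets nearest to it in mean signal. Around EXPA8, 10.8% of these were at least 1.5-fold lower in NOT and 3.75% were as low as EXPA8 itself. Around EXPA4, 9.00% were at least 1.5-fold lower and 6.75% as low. Around XTH32 these shares were 9.25% and 7.25%. Around EXO they were 9.00% and 3.50%. Ratios of the size of EXPA4 and XTH32 were thus about as common at their own signal as over the whole array.

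**Figure D2:**
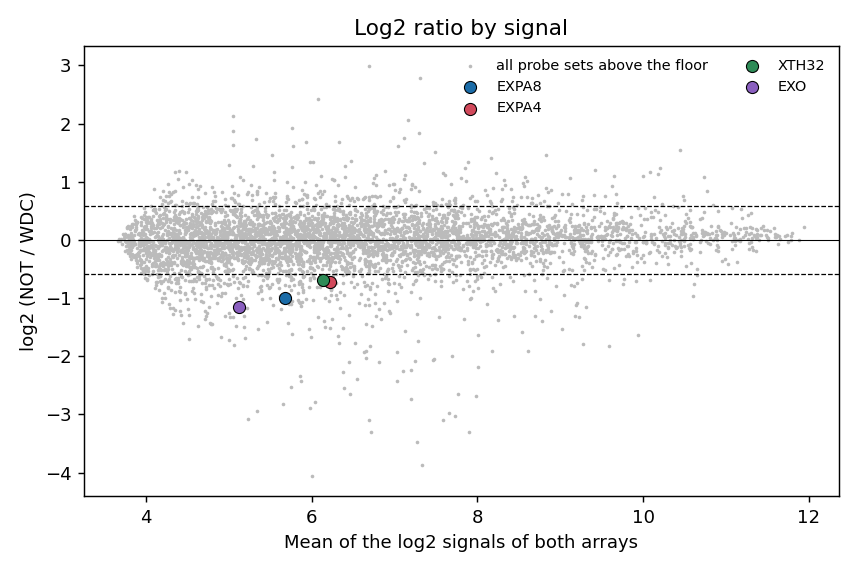
Each grey point is 1 of 4753 probe sets above the floor on both arrays, with the mean of its log2 signals on the horizontal axis and log2 (NOT / WDC) on the vertical axis. Dashed lines mark 1.5-fold in each direction. The 4 coloured points lie below the lower dashed line at log2 ratios from -1.15 to -0.69, inside a lower tail that reaches well beyond them.

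None of the 3 other expansins measured here passed 1.5-fold in either direction, beside 9.09% of named genes lower and 4.7% higher. EXPA15, an alpha-expansin, had a signal of 28.1 in NOT against 26.3 in WDC (log2 ratio 0.10). EXPB1 had 20.1 in NOT against 24.4 in WDC (log2 ratio -0.28). EXPB2, another beta-expansin, had 14.1 in NOT against 13.9 in WDC (log2 ratio 0.02) at signals near the floor. EXPA20 and the expansin-like gene EXLA2 were below the floor on both arrays, with signals of 1.5 and 0.7 in NOT and 1.2 and 6.8 in WDC. A second probe set of EXPB1 was below the floor too.

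Among the other XTH genes 1 was measured. It was EXGT-A3 (AT2G01850), also known as XTH27, with 268.7 in NOT against 305.7 in WDC (log2 ratio -0.19), and its probe set carries the mark of shared sequence. XTH21, XTH26, XTH29 and XTH33 were below the floor on both arrays, with signals of 0.3 to 1.3 in NOT and 0.6 to 2.8 in WDC. Counted together, 10 expansins and XTH genes other than EXPA4, EXPA8 and XTH32 had a named probe set, 4 were measured, and 0 of these were at least 1.5-fold lower or higher. Their median log2 ratio was -0.08, beside 0.00 for all probe sets, and 9.09% of named genes were at least 1.5-fold lower and 4.7% at least 1.5-fold higher. With 4 genes measured, the difference between them and the grouped genes, which were picked for low values, was not tested. No relative of EXO had a named probe set here.

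Further genes of wall synthesis and growth were read from 9 lists, in which 31 genes had a named probe set and 9 were above the floor on both arrays. Of these 9, 1 was at least 1.5-fold lower and 1 at least 1.5-fold higher in NOT, beside 9.09% and 4.7% of named genes. The 9 had a median log2 ratio of -0.18, and nothing is read from these counts for wall genes as a set. The lower one was IAA18, a repressor of the auxin response, with 53.9 in NOT against 121.1 in WDC (log2 ratio -1.17). The higher one was ATPMEPCRB (AT4G02330), a pectin methylesterase, an enzyme that removes methyl esters from wall pectin. Its signal was 208.3 in NOT against 110.4 in WDC, so 1.89-fold higher in NOT. Its second probe set, marked for shared sequence, read 180.7 in NOT against 99.0 in WDC, so 1.83-fold higher. ATPMEPCRB was thus a wall gene that was not lower in NOT.

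COB (COBRA), a membrane-anchored protein that guides the orientation of cellulose, had 410.9 in NOT against 476.7 in WDC (log2 ratio -0.21). The auxin genes WES1, which encodes an enzyme that joins amino acids to auxin, and IAA20 stood at -0.18 and -0.04, and the probe set of IAA20 is marked for shared sequence. Further shared-sequence probe sets of IAA20 were below the floor, at 1.0 and 1.0 in NOT and 0.6 and 0.3 in WDC. The tubulins TUB6, TUB5, TUB9 and TUA1, which build the microtubules that guide cellulose deposition, had log2 ratios of -0.41, -0.29, -0.14 and 0.18, that of TUA1 on a shared-sequence probe set. All of these log2 ratios lay within 1.5-fold. The brassinosteroid receptor gene BRL1 was below the floor, with 5.4 in NOT and 6.1 in WDC, and 0 genes of the gibberellin, aquaporin and structural wall protein lists had a named probe set.

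Some genes of these lists were above the floor on 1 array only and are named for that reason, after their values were seen. ACT11, an actin, had 8.3 in NOT and 24.1 in WDC, at least 1.93-fold lower in NOT when the floor replaces the dim signal. CSLC5, of a family that makes the xyloglucan backbone, and GH9B8, of the endoglucanase family, had 8.1 and 9.6 in NOT and 15.6 and 14.8 in WDC, at least 1.25-fold and 1.18-fold lower. CSLB03 and CSLA01, of the cellulose synthase-like families, had 20.5 and 14.7 in NOT and 8.3 and 1.2 in WDC, at least 1.64-fold and 1.18-fold higher, and the probe set of CSLB03 is marked for shared sequence. These genes went in both directions. Over all probe sets that are not controls, 242 were above the floor in WDC only and 141 in NOT only.

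**Figure D3:**
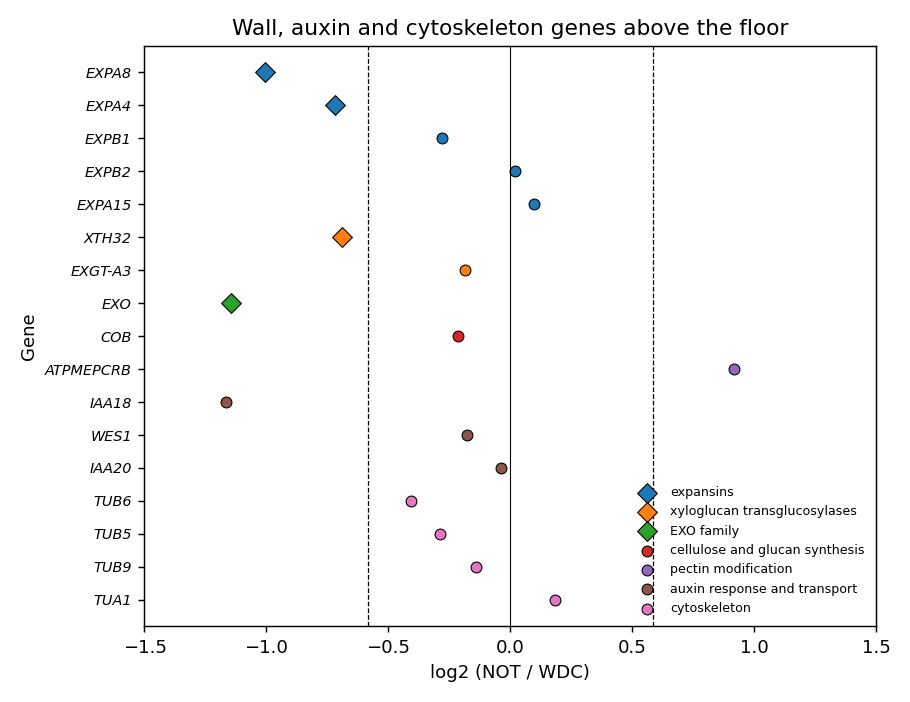
Points give log2 (NOT / WDC) of each listed gene above the floor on both arrays, coloured by list, from its brightest probe set and with 1 array per group. Diamonds are EXPA8, EXPA4, XTH32 and EXO, circles the other genes, and dashed lines mark 1.5-fold. Besides the diamonds, IAA18 at -1.17 lies beyond the lower line and ATPMEPCRB at 0.92 beyond the upper one.

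The named genes whose pair of log2 signals came closest to those of each gene were found by distance over the 2 arrays. For EXPA8 they were AT2G18670, with 35.5 in NOT and 70.9 in WDC, and AT2G31410, with 37.8 in NOT and 78.2 in WDC. For EXPA4 they were AT5G44286, with 56.6 in NOT and 96.7 in WDC, and AT4G29020, with 55.8 in NOT and 100.6 in WDC. For XTH32 they were AT1G24267, with 56.1 in NOT and 88.1 in WDC, and again AT5G44286, whose probe set is marked for shared sequence. For EXO they were AT5G26760, with 24.0 in NOT and 47.8 in WDC, and AT1G70420, with 23.1 in NOT and 57.2 in WDC. The distances ran from 0.03 to 0.14 on the log2 scale, and 2 points per gene say no more than that the signals were alike.

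EXPA4, EXPA8 and XTH32 lie on chromosome 2 and EXO on chromosome 4, which hold 37.1% and 31.9% of the named genes. Of measured named genes on these chromosomes, 8.66% and 9.53% were at least 1.5-fold lower in NOT. Of 12 genes with a named probe set up to 5 places from one of the 4, 9 were measured, and 0 of these were at least 1.5-fold lower and 1 at least 1.5-fold higher in NOT. Of the genes up to 5 places from EXPA8, AT2G40600, adjacent on 1 side, had 179.1 in NOT against 109.7 in WDC (log2 ratio 0.71). AT2G40620, adjacent on the other side, had a log2 ratio of 0.12, and those of AT2G40590 and AT2G40660 were 0.02 and -0.08. Around EXPA4, BIK1, a kinase of immune signalling, stood at -0.38, AT2G39670 at -0.17, AT2G39710 at 0.32 and RCA at 0.02, whereas AT2G39650 had 12.4 in NOT, just under the floor, and 65.8 in WDC, at least 5.26-fold lower in NOT. The probe sets of BIK1, AT2G39710, RCA and AT2G39650 are marked for shared sequence. A gene next to EXO, AT4G08960, stood at 0.29, and no gene up to 5 places from XTH32 had a named probe set.

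The arrays as a whole were alike in scale. The trimmed mean signal was 100.1 on both arrays, and 59.3% of probe sets in NOT and 60.6% in WDC were above the floor. Green tissue was checked with 24 genes of photosynthesis, of which 5 had a named probe set. All 5 were bright, with signals of 304.1 to 3135 in NOT and 374.6 to 3028 in WDC and log2 ratios from -0.30 to 0.10. Of 11 listed markers of root, flower and seed, 1 had a named probe set, LEA4-5 of seeds, with 17.8 in NOT and 14.4 in WDC, near the floor. With no root or flower marker to read, the markers cannot tell rosette leaves from seedlings, which the extraction text names. Genes that are often used as references differed between the arrays by amounts that approach those of EXPA4 and XTH32. The 3 GAPDH control probe sets had log2 ratios from -0.60 to -0.36, the lowest of them itself past 1.5-fold. The actin control had -0.05 and the 3 ubiquitin controls ran from -0.20 to 0.57. The signal of the GAPDH probe set at the 3' end over that at the 5' end was 1.24 in NOT and 1.19 in WDC, and for ubiquitin it was 1.45 in NOT and 1.13 in WDC. The part of RNA quality in the ratios was not tested.

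The scale of the arrays bears on the weaker pair. When both arrays were set equal on the 9 spiked-in hybridisation controls, whose median log2 ratio was -0.14, the median of all probe sets moved to 0.14 and every ratio rose by the same amount. EXPA8 and EXO then stood at -0.86 and -1.00, still past 1.5-fold, and EXPA4 and XTH32 at -0.576 and -0.548, short of it. On the log2 scale 1.5-fold is a distance of 0.585, so EXPA4 fell only just short. The log2 ratios of the 9 controls ran from -0.275 to -0.029, so the split of the 4 genes rests on the use of their median. Scaling to single controls was not run. Of all probe sets past 1.5-fold, 59.8% were lower in NOT with the deposited scale, and 35.7% were with control scaling. With quantile normalization the share was 50.8%, from 356 lower and 345 higher ones. The deposited scale gave 415 lower and 279 higher ones, so 5.87% of those above the floor were higher, and control scaling gave 280 lower and 504 higher. Relative to the median of all probe sets, the position of the 4 genes was the same under either scale.

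**Figure D4:**
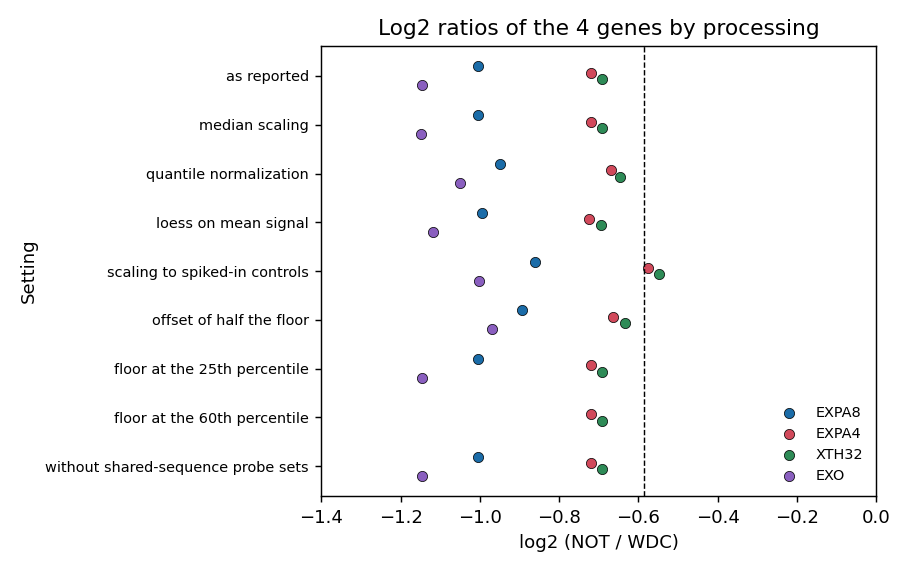
Points give log2 (NOT / WDC) of the 4 genes (colours) under each setting (rows), with the dashed line at 1.5-fold lower. All points lie below 0, and EXPA4 at -0.576 and XTH32 at -0.548 cross the line with scaling to spiked-in controls, EXPA4 only just. EXPA8 and EXO have no point with the floor at the 60th percentile, where their NOT signals fall under it.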

How the data were processed

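The file holds 1 intensity per probe set and array. Per the labels, biotin-labelled cRNA from total RNA was hybridised to arrays of 8297 probe sets, and the deposited intensities are linear and appear to have been scaled by the authors, since the mean after trimming 2% at each end is equal on both arrays. The sources used here do not name the software that summarised the probes. Of 8247 probe sets that are not controls, 3794 named 1 gene, 70 several and 4383 none in the platform's annotation, and 3784 were matched by gene identifier to RefSeq genes (assembly TAIR10.1), which served for naming and for the order of genes.

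Log2 ratios of NOT over WDC were taken without an offset for probe sets above the floor on both arrays. For a gene with more than 1 probe set the brightest was used. No p-value was computed, as each group has 1 array. Lists were matched by symbol, synonym or locus. From them a fibrillin that shares a synonym was removed after the match, as was PIP (AT2G14260), which is no aquaporin, and GH9A3 was counted once, with the endoglucanases. Every gene of the expansin, XTH and EXO lists and up to 4 of each other list were to be named, with the 2 genes nearest in signal to each of the 4. The genes and lists were chosen with earlier results of these data known. The labels name rosette leaves as tissue but seedlings in the extraction text. Python 3.11.15, pandas 2.3.3, numpy 2.4.6, statsmodels 0.14.6 (loess span 0.4) and matplotlib 3.10.9 were used, and the counting was tested on simulated data.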

Additional observations from a re-analysis of the deposited data

How the results depend on the processing

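Each of the 4 genes stayed lower in NOT under every scaling, offset and floor that left it measured, with log2 ratios from -1.01 to -0.86 for EXPA8, -0.73 to -0.58 for EXPA4, -0.69 to -0.55 for XTH32 and -1.15 to -0.97 for EXO. The count of genes at least 1.5-fold lower was 4 with median scaling, quantile normalization, loess, the offset, the 25th percentile floor, the mean over probe sets and without shared probe sets. It was 2 with scaling to spiked-in controls (EXPA8 and EXO), where EXPA4 fell only just short. With the stricter 2-fold rule on the deposited scale it was also 2. It was 2 with the 60th percentile floor of 40.1, which left only EXPA4 and XTH32 measured. EXPA8 fell short of 2-fold with quantile normalization (-0.95), loess (-0.99), control scaling (-0.86) and the offset (-0.89). EXO fell short of 2-fold with the offset only. The other expansins and XTH genes gave 0 past 1.5-fold lower under each alternative run on them. At most 4 of these were measured, with 3 left without shared probe sets and 1 with the 60th percentile floor. Over all probe sets, the 25th percentile floor gave 625 lower, the 60th gave 211 lower and 182 higher, control scaling gave 504 higher, and leaving out shared probe sets gave 179 higher, where the floors and the removal test more or fewer probe sets. Several alternatives could hardly change a gene with 1 unshared probe set: median scaling, a lower floor, the mean over probe sets and the removal of shared ones. A higher floor can remove a gene but leaves its ratio as it was. As the 4 genes were picked for low ratios, their staying lower in NOT is only a description. No array could be left out. No paired analysis was possible because each group has 1 array. Dim signals limit the precision of a ratio, and the offset moved EXO to -0.97.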
